A study of Mus musculus with 2 samples.

Results

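The axon guidance ligands and receptors of the mouse were read in maps of open chromatin from MN1, an immortalized mouse cell line. The genes were taken by symbol from the protein-coding genes of GENCODE release M21: the semaphorins, plexins, neuropilins, ephrins, Eph receptors, Slits, Robos, numbered netrins and Unc5 receptors, with Dcc. The rule found 69 genes of 21911, of which 35 encode ligands and 34 receptors. The maps came from DNase-seq, in which DNase I cuts accessible DNA more often than its surroundings, of 2 biological replicates labelled as MN1 of strain B6NCrl. The cells of both replicates had received 10 nM methyltrienolone, a synthetic androgen, and no untreated library was analysed here. The values are therefore levels in treated cells, with no comparison between conditions. Both replicates come from the same line, whose tissue, sex and age the labels do not give, so they show the spread between cultures and not between animals.

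Axon guidance molecules steer growing axons by attraction or repulsion at the growth cone. Semaphorins signal through plexins, and the secreted class 3 semaphorins bind neuropilins as co-receptors. Ephrins, held in the membrane, bind Eph receptor tyrosine kinases on neighbouring cells, Slits bind Robo receptors, and netrins bind Dcc and Unc5 receptors. In the spinal cord these systems guide motor axons out to their muscles and keep or send commissural axons across the midline. An open promoter shows that a start site is accessible and does not show that the gene is transcribed.

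The authors' lists held 189648 analysed peaks in replicate 1 and 170745 in replicate 2, each peak 150 bp wide. The depth behind them is unknown. A promoter is called open where overlapping peaks of both replicates lay within 1 kb of any annotated transcription start site (TSS) of the gene. Over all protein-coding genes 59.5% were open. The promoters of all 10 neuronal marker genes listed were open. Of 6 motor neuron markers 4 were open (66.7%, near that share), Mnx1 and Slc5a7 having no promoter peak, and of 5 fibroblast markers 3 (60.0%). Open promoters were found at 1 of 6 glial, 0 of 5 muscle and 0 of 5 epithelial markers. MN1 lines are used as motor-neuron-like cells, a use that the labels do not state.

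CpG-rich sequence was found at start sites with and without a peak. The 6 promoters printed here were chosen as CpG-rich (defined below), so they are examples and do not show how common this is. The lines below give the 250 bases before a RefSeq start site (GRCm38.p6, the assembly of mm10) in the direction of the gene, with each CpG dinucleotide in capitals. The first 3 ranked highest by promoter peak score (explained below) among open genes whose CpG-rich upstream bases held no exon. They were also chosen to overlap a region open in both replicates: Unc5b (chr10:60831582-60831831, minus strand, 27 CpGs), Plxnb2 (chr15:89180789-89181038, minus strand, 20 CpGs) and Sema6c (chr3:95160170-95160419, plus strand, 15 CpGs). The last 3 ranked highest by CpG ratio among genes without a promoter peak in either replicate whose upstream bases held no exon. By this choice they overlapped no region open in both replicates: Efnb2 (chr8:8661243-8661492, minus strand, 27 CpGs), Epha7 (chr4:28812881-28813130, plus strand, 25 CpGs) and Epha5 (chr5:84417383-84417632, minus strand, 20 CpGs).
Unc5b: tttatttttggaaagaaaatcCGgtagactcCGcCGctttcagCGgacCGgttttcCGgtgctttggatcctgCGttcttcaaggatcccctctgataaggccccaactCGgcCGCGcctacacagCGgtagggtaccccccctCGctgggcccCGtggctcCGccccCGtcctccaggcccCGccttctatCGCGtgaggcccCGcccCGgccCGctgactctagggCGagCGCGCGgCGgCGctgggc
Plxnb2: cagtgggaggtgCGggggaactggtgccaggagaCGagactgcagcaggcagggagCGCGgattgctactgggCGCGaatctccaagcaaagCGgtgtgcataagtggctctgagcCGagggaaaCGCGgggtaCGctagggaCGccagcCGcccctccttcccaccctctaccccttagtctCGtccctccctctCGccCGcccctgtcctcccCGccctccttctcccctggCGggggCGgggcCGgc
Sema6c: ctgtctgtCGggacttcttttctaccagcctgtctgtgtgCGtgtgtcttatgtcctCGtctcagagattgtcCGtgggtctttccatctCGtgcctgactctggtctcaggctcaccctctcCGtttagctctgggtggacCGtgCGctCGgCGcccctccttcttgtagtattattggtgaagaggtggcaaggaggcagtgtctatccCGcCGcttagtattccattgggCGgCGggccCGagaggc
Efnb2: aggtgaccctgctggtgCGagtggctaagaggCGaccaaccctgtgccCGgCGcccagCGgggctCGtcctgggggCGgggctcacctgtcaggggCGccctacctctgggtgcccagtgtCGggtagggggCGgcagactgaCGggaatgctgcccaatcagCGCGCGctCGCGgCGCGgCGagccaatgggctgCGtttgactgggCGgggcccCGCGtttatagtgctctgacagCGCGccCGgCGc
Epha7: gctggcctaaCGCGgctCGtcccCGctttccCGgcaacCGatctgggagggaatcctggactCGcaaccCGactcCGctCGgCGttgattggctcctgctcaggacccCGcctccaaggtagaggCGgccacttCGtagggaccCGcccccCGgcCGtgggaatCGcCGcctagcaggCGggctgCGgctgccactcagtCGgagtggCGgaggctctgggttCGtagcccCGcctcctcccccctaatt
Epha5: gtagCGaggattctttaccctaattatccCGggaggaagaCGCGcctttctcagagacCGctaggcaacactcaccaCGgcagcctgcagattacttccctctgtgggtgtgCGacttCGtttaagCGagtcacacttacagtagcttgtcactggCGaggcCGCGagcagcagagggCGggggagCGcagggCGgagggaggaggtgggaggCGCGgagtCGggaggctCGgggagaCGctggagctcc
Taking each gene's start site richest in CpG, open members had a median of 17 CpGs in these 250 bases and the other members 16.5, over 59 of the 69 genes with a RefSeq promoter. Measured in the same way, the median was 17 over 10157 open protein-coding genes and 3 over 6365 that were not open.

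Of the 69 axon guidance genes, 44 had an open promoter (63.8%), against 59.5% of all protein-coding genes. Another 4 (5.80%, against 3.61%) had promoter peaks but no shared promoter region, and 21 (30.4%) had none in either, against 36.9% of all genes. The count in replicate 1 alone was 47 and in replicate 2 alone 45 (68.1% and 65.2% of members, against 61.9% and 60.8% of all genes). The overall share thus lay near the background, but it joined a high share among short members to a low share among long ones. Of 37 members under 100 kb in length 32 were open (86.5%, against 58.8% of all such genes), and of 32 members of 100 kb or more 12 were open (37.5%, against 65.0%). The classes below 100 kb were open in 5 of 6 members under 10 kb (against 41.9% of all genes), 25 of 29 from 10 to 50 kb (68.7%) and 2 of 2 from 50 to 100 kb (74.9%). From 100 to 300 kb the count was 6 of 17 (against 69.5%), and over 300 kb 6 of 15 (against 49.8%). A promoter was called CpG-rich where the observed number of CpGs was at least 0.6 of the number expected from base content in the 1 kb centred on a TSS. Such promoters were held by 54 members (78.3%, against 52.5% of all genes), of which 34 were open (63.0%), against 86.9% of such promoters in all genes. Among the 15 CpG-poor members 10 were open (66.7%, against 29.2%). The 29 members that were both CpG-rich and at least 100 kb long were open in 12 cases (41.4%, against 74.5%), 6 of 17 from 100 to 300 kb (against 79.5%) and 6 of 12 over 300 kb (against 57.2%). For genes under 100 kb the shares were not matched for CpG content. All 12 open members of 100 kb or more were CpG-rich, so the 10 open CpG-poor members were all shorter. Whether the higher share among short members goes with CpG content was not tested. All 3 members on the X chromosome, Efnb1, Plxna3 and Plxnb3, were open. They are too few to set against the 42.5% of the genes there, and all are from 10 to 50 kb long. A missing peak does not prove a closed promoter, since calls depend on depth and threshold.

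**Figure D1:**
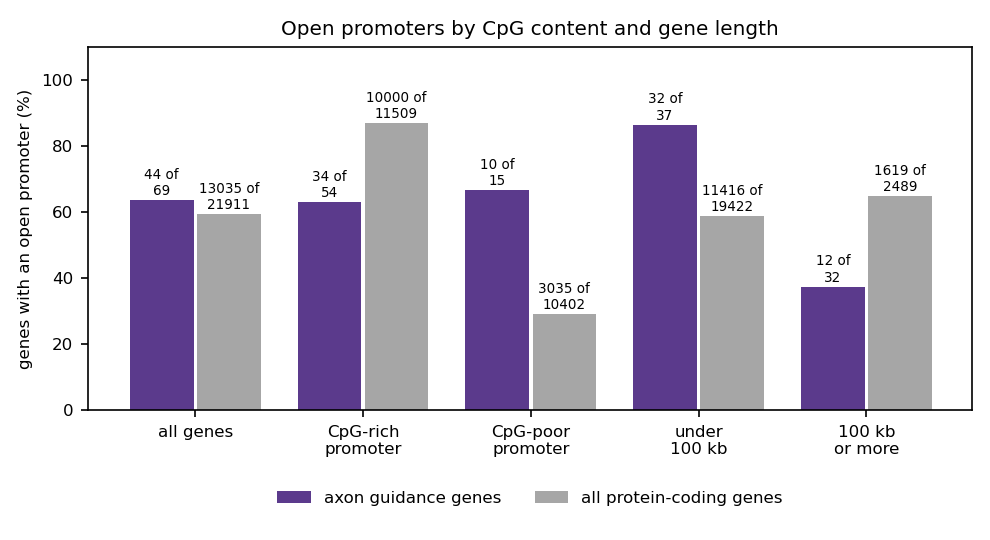
Percentage of genes with an open promoter, for the 69 axon guidance genes (purple) and all protein-coding genes (grey), over all genes and split by promoter CpG content and by gene length. Labels above the bars give the counts, and the bars carry no error because each is 1 count over both replicates. The purple bar is the lower one for CpG-rich promoters (34 of 54) and for genes of 100 kb or more (12 of 32), and the higher one for CpG-poor promoters and shorter genes.

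Open members had promoter peaks of low rank. The authors gave every peak a score between 1 and 150 without stating its meaning in the sources used here, and a gene's promoter score is that of its highest promoter peak. Among the 44 open members the median was 124 in replicate 1 and 106 in replicate 2, against 136 and 128 over all 13035 open genes. Since scores are only compared within a list, each was turned into a percentile among open genes of its replicate, and the lower of both percentiles is given below. Its median was 23.8 over the open members and 44.9 over all open genes. Only 6 of the 44 members (13.6%) lay above percentile 50, against 44.6% of all open genes. These were Unc5b, Plxnb2, Sema4b, Sema6a, Sema4d and Unc5c. The percentiles of both replicates differed by a median of 3.19 in open members and 5.88 in all open genes, so neighbours in the ranking below are not told apart.

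**Figure D2:**
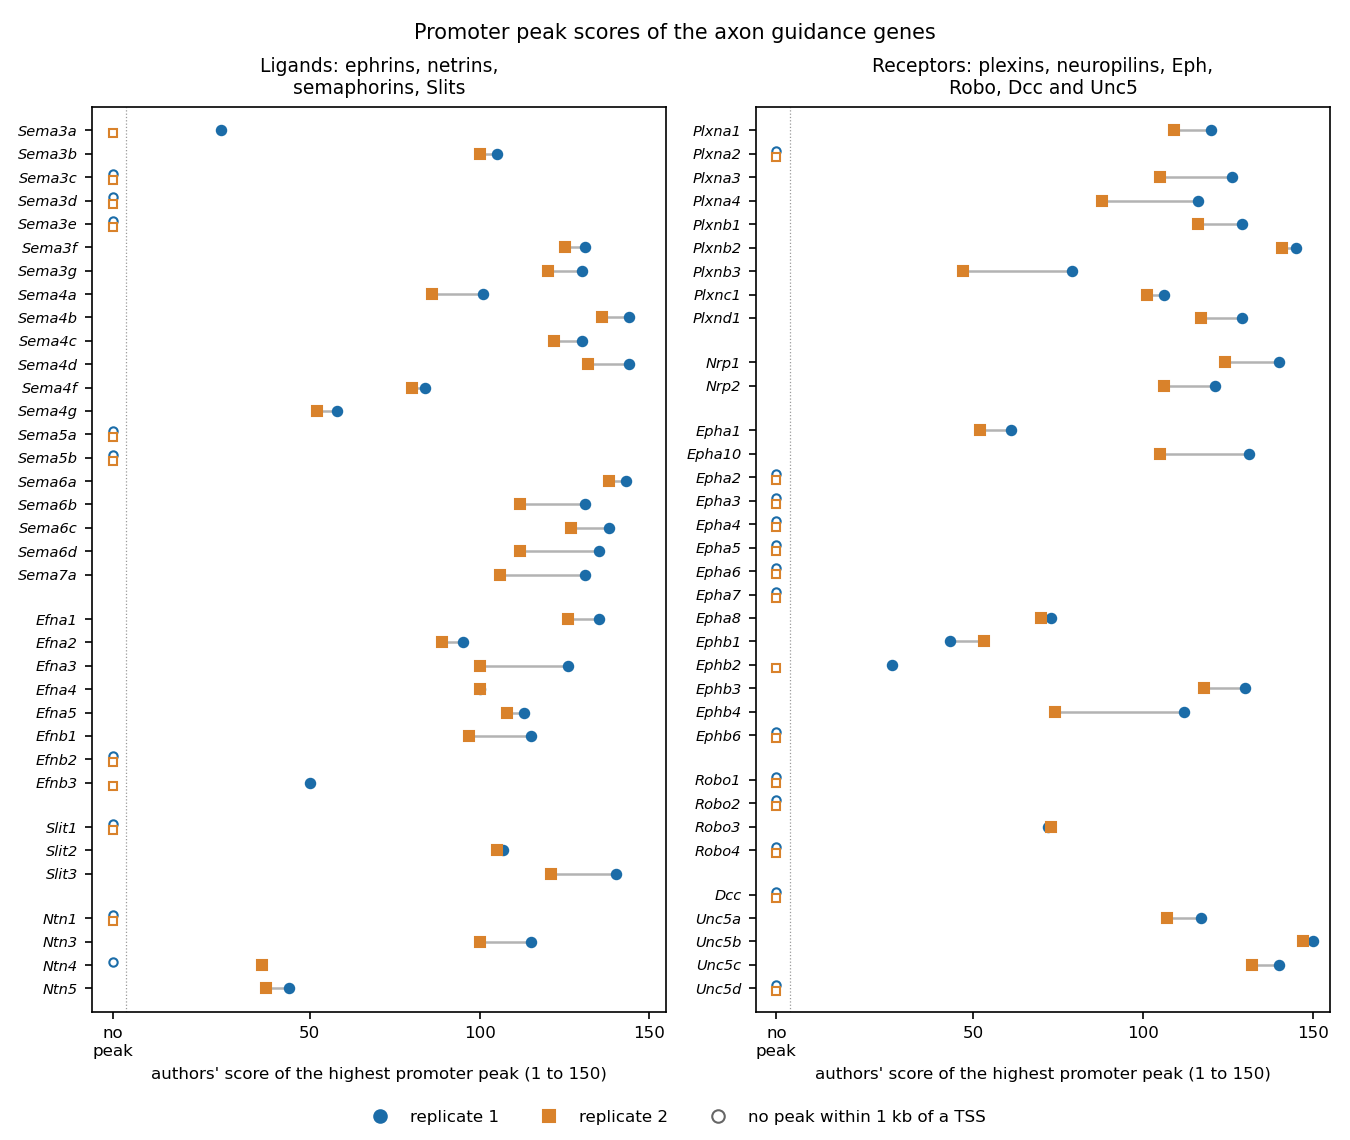
Score of the highest promoter peak (x axis, 1 to 150) of each of the 69 genes in replicate 1 (blue circles) and replicate 2 (orange squares), ligands on the left and receptors on the right, with open symbols at the left edge where a replicate had no promoter peak. Class 4 and 6 semaphorins and nearly all plexins have peaks in both replicates, while Epha2 to Epha7, Robo1, Robo2 and Dcc have none.

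Semaphorins were divided by class. Of 20 genes 14 were open (70.0%, against the background of 59.5%), among them all 6 of class 4, all 4 of class 6 and Sema7a, whose products are held in the membrane. Sema4b, a class 4 ligand, scored 144 in replicate 1 and 136 in replicate 2 (percentile 70.8), with its highest peak at the 5′ end in replicate 1 (chr7:80187076-80187225) and beside a second start in replicate 2 (chr7:80198456-80198605). Sema4d, a ligand of plexin B1, scored 144 and 132 at a start 16477 bp inside the gene (chr13:51777196-51777345). Sema6a scored 143 and 138 just before its 5′ end, and Sema6c 138 and 127. The lowest of these classes was Sema4g, with 58 in replicate 1 and 52 in replicate 2 (percentile 5.7). Between these lay Sema4c (130 and 122), Sema6d (135 and 112), Sema6b (131 and 112), Sema7a (131 and 106), Sema4a (101 and 86) and Sema4f (84 and 80).

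Secreted class 3 semaphorins were open at 3 of 7 genes (42.9%, against 59.5% of all genes). Sema3f, a repellent that acts through Nrp2, scored 131 and 125 (chr9:107709876-107710025 in replicate 1), and Sema3g 130 and 120. The peak of Sema3g also lay within 1 kb of a start of Nisch, and so cannot be assigned to either gene. Sema3b scored 105 and 100, but its peak lay 6979 bp inside the gene in replicate 1, and the gene was not open when only starts of protein-coding transcripts were counted. Sema3c, Sema3d and Sema3e had no promoter peak, and Sema3a, the best studied repellent of motor and sensory axons, had 1 of score 24 in replicate 1 and none in replicate 2. Neither class 5 gene, Sema5a or Sema5b, had a promoter peak. The 3 open class 3 genes span from 11.6 kb (Sema3b) to 29.0 kb (Sema3f), and the 4 others from 156 kb (Sema3c) to 477 kb (Sema3a).

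Receptors of the semaphorins were open with 1 exception. Of 9 plexins 8 were open (88.9%, against the 59.5% of all genes). Plxnb2 ranked highest, with 145 in replicate 1 and 141 in replicate 2 (percentile 77.5, chr15:89180756-89180905 in replicate 1). Plxnd1, which binds Sema3e, scored 129 and 117, and Plxnb1, the Sema4d receptor, 129 and 116. Plxna1 followed with 120 and 109, then Plxna3 (126 and 105), Plxnc1 (106 and 101) and Plxna4 (116 and 88). Plxnb3 was the lowest, with 79 and 47 at a start 8400 bp inside the gene in replicate 1, and it was not open by starts of protein-coding transcripts alone. Plxna2 had no promoter peak in either replicate. Both neuropilins were open: Nrp1 scored 140 and 124 (chr8:128358976-128359125 in replicate 1) and Nrp2 121 and 106.

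Ephrins and Eph receptors were open in unequal shares, but they also differ in length, with medians of 9.97 kb and 92.4 kb. Whether the shares differ at like length was not tested. All 5 ephrin-A genes were open: Efna1 (135 in replicate 1 and 126 in replicate 2), Efna5 (113 and 108), Efna3 (126 and 100), Efna4 (100 and 100) and Efna2 (95 and 89). Of the 3 ephrin-B genes Efnb1 was open, at 115 and 97. Efnb3 had a peak of score 50 in replicate 1 only. Efnb2, a ligand of several EphB receptors and of Epha4, had no promoter peak. Of 14 Eph receptor genes 6 were open (42.9%, against 59.5% of all genes): 3 of 9 EphA and 3 of 5 EphB genes. Ephb3 scored 130 and 118 at a start 6295 bp inside the gene (chr16:21210976-21211125). Epha10, whose kinase domain is thought inactive, scored 131 and 105. Ephb4, the receptor of ephrin-B2 on veins, scored 112 in replicate 1 and 74 in replicate 2. Epha8 had 73 and 70, Epha1 61 and 52, and Ephb1 43 and 53. Ephb2 had a peak of score 26 in replicate 1 only. No promoter peak was found at Epha2, at Ephb6 or at any of Epha3, Epha4, Epha5, Epha6 and Epha7, a group that includes Epha4, which sorts motor axons in the limb.

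Of the 3 Slit genes 2 were open and of the 4 Robo genes 1, counts too small to set against the 59.5% of all genes. Slit2 scored 107 and 105 at its 5′ end (chr5:47983036-47983185 in replicate 1). Slit3 scored 140 and 121, but that peak lay at a start 423346 bp inside the gene (chr11:35544496-35544645 in replicate 1). At the 5′ end of Slit3 the highest peaks scored 75 in replicate 1 and 92 in replicate 2. Slit1 had no promoter peak. Robo3, which keeps commissural axons from responding to Slit until they cross the midline, was the open Robo gene (72 and 73), and its peak lay 2496 bp inside the gene. Robo1 and Robo2, the main Slit receptors of neurons, and Robo4, a gene of blood vessels, had no promoter peak in either replicate.

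Among the netrin genes Ntn3 was open at 115 and 100 and Ntn5 at 44 and 37. Ntn4, which encodes a basement membrane netrin, had a peak of score 36 in replicate 2 only. Ntn1, the attractant of commissural axons, had no promoter peak. Of its receptors, Dcc, which mediates attraction, had none either, while 3 of the 4 Unc5 genes, whose products mediate repulsion, were open. Unc5b had the highest promoter score of all members, 150 in replicate 1 and 147 in replicate 2 (percentile 98.4, chr10:60831496-60831645 in replicate 1), at the CpG-rich start printed above. Unc5c scored 140 and 132 (chr3:141465436-141465585), and Unc5a 117 and 107. Unc5d had no promoter peak. Open promoters were thus found at 2 of 4 netrin and 3 of 5 netrin receptor genes, counts too small to set against the 59.5% of all genes. The receptors also differ in length. Dcc spans 1097 kb and Unc5d 573 kb, against 56.6 kb for Unc5a, 69 kb for Unc5b and 370 kb for Unc5c.

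The open start was usually that of the 5′ end of the gene. A shared region lay within 1 kb of the 5′ end of 38 members (55.1%, against 55.0% of all genes). These shares are over genes with and without an open promoter. Among open genes the counts were 38 of 44 members and 12049 of 13035 protein-coding genes. The 6 others (Ephb3, Ntn5, Plxnb3, Robo3, Sema3b and Sema4a) were open only at another start. Starts more than 1 kb apart were counted as separate, and 32 open members had more than 1. All were open in 8 of these 32. Sema6d scored 135 and 112 at a start 520421 bp downstream of its 5′ end (chr2:124610316-124610465), while its 5′ end scored 88 and 74.

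Hotspots, the wider regions of cutting that the authors called in each library, exceeded 2 kb in both replicates at 5 members (7.25%, against 7.16% of all genes). Efna5, a repellent ligand of EphA receptors, had 5539 bp in replicate 1 and 5573 bp in replicate 2 (chr17:62879264-62884802 in replicate 1). Nrp1 had 4153 and 4080 bp, Sema4c 3276 and 3279 bp, Plxnc1 2955 and 2646 bp, and Ntn3 2314 and 2201 bp.

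Distal regions, shared regions centred more than 2.5 kb from any TSS, were counted in the gene body and within 50 kb of each member. There were 755, of which 426 (56.4%) lay in the body of a member, 67.5% in introns, 5.96% in exons and 26.5% between genes. Near neighbouring members, such as Efna1, Efna3 and Efna4, 15 regions were counted for more than 1 gene. The median was 7 regions per member, against 4 over all protein-coding genes, and 10 members had none (14.5%, against 20.1%). Because the window grows with the gene, members were also set beside genes of like length and promoter state. The 12 open members of 100 kb or more had from 4 to 96 regions, with a median of 24.5, against 14 over all 1619 such genes. The 20 members of that length without an open promoter had a median of 1.5, against 2 over 870 such genes. These pooled medians mix lengths, since 9 of the 20 members but only 284 of the 870 genes are over 300 kb. From 100 to 300 kb the medians were 22.5 against 13 with an open promoter (6 members) and 6 against 2 without (11 members). Over 300 kb they were 30 against 25 with an open promoter (6 members) and 1 against 1 without (9 members). The largest class, 25 open members from 10 to 50 kb, had a median of 6, equal to the 6 over all 6279 such genes. For the 5 open members under 10 kb it was 9, against 5.

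Slit3 held the most, 96 distal regions, at percentile 99 among the 566 genes over 300 kb. Plxna4, with 35, and Sema6d, with 34, are also over 300 kb and stood at percentiles 83 and 81.7. The percentiles in this paragraph are over all genes of the length class, with or without an open promoter. The 282 open genes over 300 kb had a median of 25 and an upper quartile of 39.8. Unc5b, in the class from 50 to 100 kb, had 33 (percentile 99.1 of its length class), Efna5 had 31 (percentile 95) and Epha8 had 28 (percentile 99.6), of which only 6 lay in the Epha8 gene itself. The strongest distal region near Slit3 lay in an intron 466 kb from its 5′ end (chr11:35587216-35587385) and scored 149 in replicate 1 and 143 in replicate 2. That near Unc5b lay in an intron 14.5 kb from the 5′ end (chr10:60816976-60817145, 147 and 139). An intergenic region 3.02 kb upstream of Efna5 scored 134 and 128 (chr17:62884256-62884425). It lay inside the wide promoter hotspot of Efna5 given above, in both replicates.

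**Figure D3:**
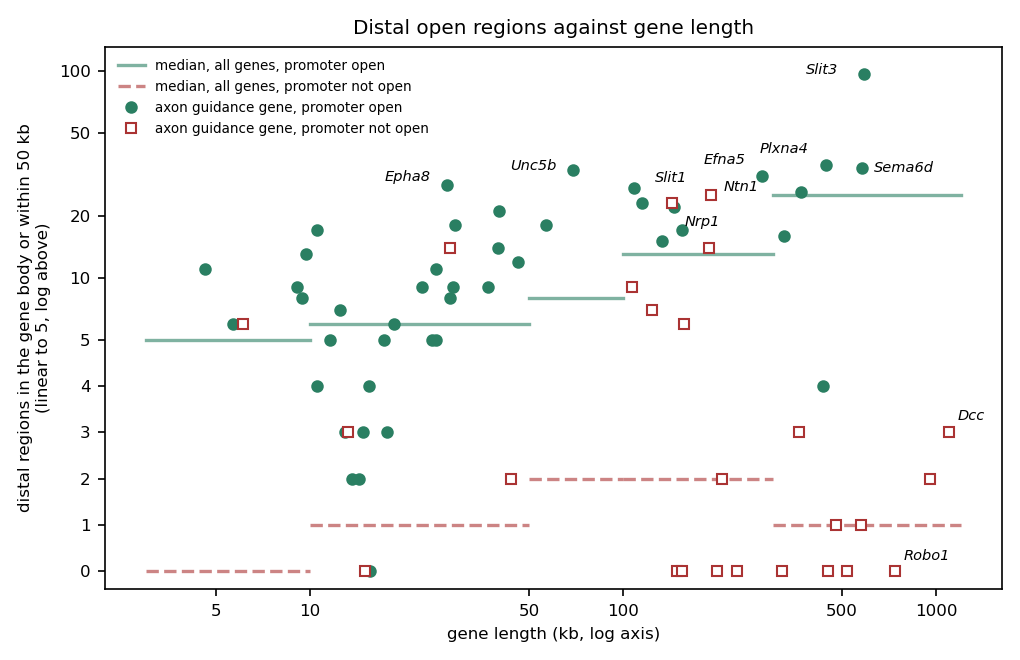
Number of shared distal regions in the gene body or within 50 kb (y axis, linear to 5 and logarithmic above) against gene length in kb (x axis, logarithmic) for the 69 genes, with filled circles for open promoters and open squares for the others. Horizontal lines are medians over all protein-coding genes of each length class with an open promoter (solid) or without (dashed). Slit3 stands highest with 96, and Slit1 and Ntn1 lie far above the dashed line.

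Slit1 and Ntn1 had many distal regions but no promoter peak. Ntn1 had 25 distal regions, 20 of them in its body, and Slit1 had 23, with 18 in its body. Of all genes without an open promoter 2.92% had at least 15 such regions, and of the 25 members without one these 2 did (8%). These shares are over genes of all lengths, whereas Slit1 is 143 kb and Ntn1 191 kb long. The 586 genes from 100 to 300 kb without an open promoter had a median of 2 such regions and an upper quartile of 6. The strongest region in Slit1 lay in an intron 46.0 kb from the 5′ end and scored 127 in replicate 1 and 120 in replicate 2 (chr19:41697576-41697725). In Ntn1 it lay in an intron 185 kb from the 5′ end and scored 141 and 91 (chr11:68215936-68216145). Epha2 and Ephb2, also without an open promoter, had 14 distal regions each.

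Other long members lay in stretches with almost no peaks. Of the 32 members of at least 100 kb 8 had no shared distal region (25%, against 11.2% of all genes of that length). None was found in or within 50 kb of Epha3, Epha4, Epha7, Robo1, Robo2, Plxna2, Sema3e or Sema5a, which make 8 of the 20 of these members without an open promoter (40.0%, against 29.8% of all such genes). The other 2 members with none, Ephb6 and Plxna3, are about 15 kb long. Plxna3 does not lie in such a stretch: its promoter was open, and its window held 25 peaks in replicate 1 and 28 in replicate 2. Epha4, Epha7, Ephb6 and Robo2 had no peak of any kind in either replicate in these windows. Robo1, 738 kb long (chr16:72308306-73046095), had 0 peaks in replicate 1 and 4 in replicate 2. Dcc, which at 1097 kb is the longest member, had 3 shared distal regions, all in its introns, the strongest scoring 95 and 88. Unc5d had 1, Sema3a 1, and Epha6 and Sema3d 2 each.

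**Figure D4:**
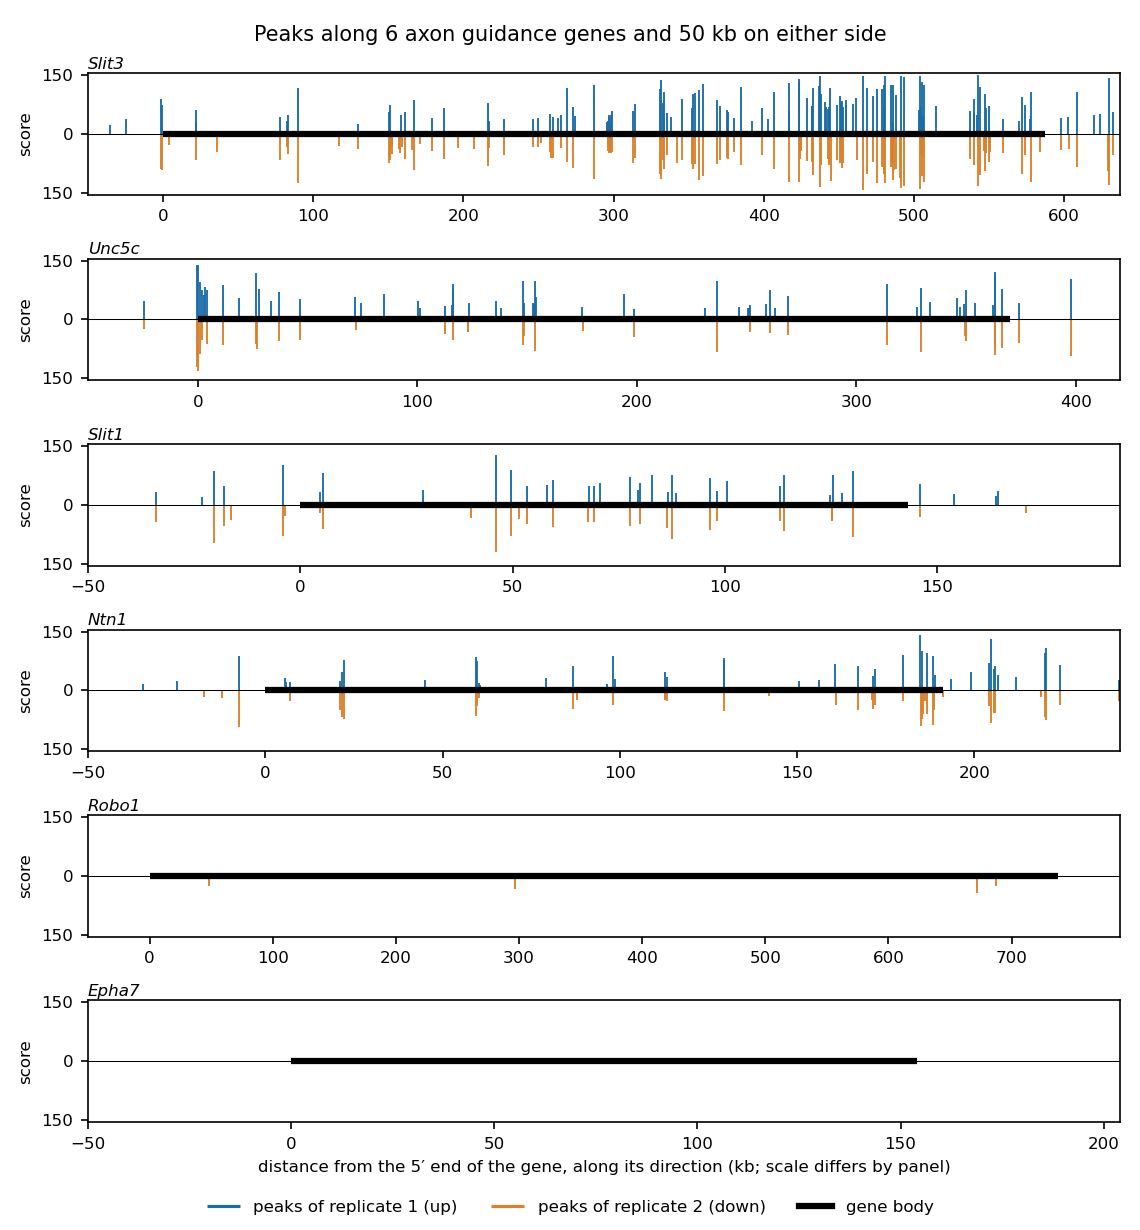
Peaks of replicate 1 (blue, upward) and replicate 2 (orange, downward) along 6 genes, with the score as the height and the distance from the 5′ end in kb on the x axis, whose scale differs by panel; the black bar is the gene body. Slit3 and Unc5c carry many peaks in both replicates, Slit1 and Ntn1 carry peaks in the body but none at the 5′ end, Robo1 has 4 weak peaks in replicate 2 only, and Epha7 has none.

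Motifs of 8 transcription factors or factor families were sought in these distal regions. The 150 bp around the centre of each region were searched on both strands. Sites of AP-1 (TGANTCA), a factor induced by many growth signals, were found in 121 of 755 regions (16.0%), against 17.5% of all 76127 distal regions. CTCF sites were in 6.36% (against 6.25%), the homeodomain core TAATTA in 5.83% (5.33%) and EBF sites (TCCC and GGGA, 2 bases apart) in 3.44% (2.20%). NFI palindromes (TTGGC and GCCAA, 5 bases apart) were in 1.85% (3.33%), RFX palindromes in 1.06% (0.743%) and the CRE (TGACGTCA) in 0.265% (0.470%). The shares of AP-1, CTCF and TAATTA lay near those of all distal regions. The EBF share was higher and the NFI share lower, but the rarer motifs rest on few regions: 26 for EBF, 14 for NFI, 8 for RFX and 2 for the CRE. CTCF was allowed 2 mismatches, NFI and RFX 1, and the AP-1, EBF, CRE and homeodomain motifs none, so the shares do not rank the factors. With 1 mismatch fewer, NFI was found in 0 regions, RFX in 0.132% and CTCF in 2.78%. The strongest intronic region with an AP-1 site in the bodies of Slit3, Unc5b and Slit1 is printed below on the plus strand of mm10, with the AP-1 site in capitals.
Slit3: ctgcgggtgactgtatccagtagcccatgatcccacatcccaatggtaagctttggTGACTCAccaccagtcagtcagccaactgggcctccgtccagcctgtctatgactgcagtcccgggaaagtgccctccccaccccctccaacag
Unc5b: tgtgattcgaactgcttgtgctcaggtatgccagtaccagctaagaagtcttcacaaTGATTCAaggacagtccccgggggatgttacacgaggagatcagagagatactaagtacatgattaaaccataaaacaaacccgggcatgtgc
Slit1: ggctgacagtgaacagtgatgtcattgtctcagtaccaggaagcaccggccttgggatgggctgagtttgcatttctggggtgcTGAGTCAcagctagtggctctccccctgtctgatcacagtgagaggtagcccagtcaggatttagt
They lie at chr11:35587226-35587375 (Slit3, scores 149 and 143), chr10:60800426-60800575 (Unc5b, 102 and 86) and chr19:41674496-41674645 (Slit1, 47 and 44). The Slit3 body held AP-1 sites in 17 of its 91 distal regions, that of Unc5b in 2 of 23, that of Slit1 in 2 of 18 and that of Ntn1 in 4 of 20.

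Androgen response elements (AREs), the palindrome bound by the androgen receptor and related steroid receptors, were sought because of the treatment. With 2 mismatches allowed to the hexamers AGAACA and TGTTCT, 3 bases apart, 17 of the 755 regions held a match (2.25%, against 3.51% of all distal regions), with 18 matches in all. None was without a mismatch, and 5 had 1 (0.662% of regions). These 5 elements are printed below on the plus strand of mm10, with the spacer in lower case.
Sema4c: AGAACAgggTGTACT
Ntn1: AGAACAccaCGTTCT
Sema4g: AGCACAcggTGTTCT
Plxna1: AGAACTcagTGTTCT
Ephb1: AGAACAaagTGTTTT
The element near Sema4c lay in an intron of Fam178b (chr1:36572703-36572717), in a region that scored 97 in replicate 1 and 94 in replicate 2. That of Ntn1 lay in its own intron (chr11:68379713-68379727, 24 and 49), as did that of Ephb1 (chr9:102069764-102069778, 20 and 46). The element near Sema4g was in an exon of Pdzd7 (chr19:45027456-45027470, 86 and 90), and that near Plxna1 was intergenic (chr6:89376632-89376646, 39 and 36). A match is a sequence only, and binding was not measured. The share was 1.31% in the distal peaks of replicate 1 near the members and 3.15% in those of replicate 2. Neither these shares nor the one with 1 mismatch was computed over all distal sites. Whether the difference between replicates is particular to the members was therefore not tested.

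Some distal peaks of 1 library overlapped no peak or hotspot of the other. Near the 44 open members there were 298 such peaks in replicate 1 and 119 in replicate 2, a ratio of 2.5. Near the 25 other members there were 56 and 50, a ratio of 1.12, and over all distal peaks 38911 and 21451, a ratio of 1.81. Dcc had 0 in replicate 1 and 8 in replicate 2, and Unc5c 30 and 2. Each replicate is 1 library, so these counts have no replicate check.

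Other genes of guidance signalling were open at 54 of 74 (73.0%, against 59.5% of all genes), and their median percentile of promoter score was 41.5. The highest ranks were those of signalling enzymes inside the cell: Fyn, a kinase acting below Dcc and plexins (150 in replicate 1 and 149 in replicate 2), Limk1, which phosphorylates cofilin (150 and 147), Rasa1, a Ras inhibitor (150 and 147), and Trio, an activator of Rac (149 and 145). Neo1, a relative of Dcc that binds netrins and RGM proteins, was open at 134 and 137. Among the genes without a promoter peak were Ackr3 and Cxcr4, receptors of the chemokine Cxcl12, and the adhesion molecules Cntn1 and Cntn4.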

How the data were processed

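DNase-seq libraries of 2 replicates in 1 group were analysed. The deposited listings say that each library's own filtered alignment (mm10), with another input, gave its peaks and hotspots. Aligner and caller are not given in those listings or labels. The authors deposited a score for each peak, used to rank peaks within a list, and for each hotspot the −log10 of a false discovery rate, which was not used to filter. Repeated peaks (15 and 26) were counted once, and peaks off the 21 main chromosomes were left out.

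Gene models were GENCODE M21 on GRCm38. Where a symbol had several gene entries, the first was used. Merging peaks that overlapped between replicates (1 bp or more) gave 127807 shared regions. Distal regions were centred more than 2.5 kb from any start. With 1 group, no test between conditions could be made, and members are described beside all genes. The members and lists were chosen with earlier results of these data known. In each family the text names up to 4 open members with the highest lower percentile, the members without a shared promoter region, the 6 with most distal regions and the 5 with the widest hotspots, and other members were named after their values were seen. Results of some genes and regions read are left out. The steps were tested on simulated data. Calculations used Python 3.11.15, numpy 2.4.6 and pandas 2.3.3.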

Additional observations from a re-analysis of the deposited data

How the results depend on the processing

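No paired analysis was possible because there is 1 group. The 44 open members became 42 with a promoter window of 500 bp (Ntn5 and Robo3 lost) and 47 with 2500 bp (Efnb3, Epha2 and Sema3c gained). There were 41 with the stronger 50% of peaks, 44 with hotspots and 38 by the 5′ end alone, and from 45 to 47 when either replicate was left out. The share of all genes was 59.5%, and it was 57.7% and 63.4% with windows of 500 and 2500 bp, 55.6% with the stronger 50% of peaks, 57.9% with starts of protein-coding transcripts, 55% with the 5′ end, and 60.8% to 61.9% without a replicate. The members' median percentile was 23.8 and ran from 24.1 to 30 by single replicates. The 755 distal regions numbered 426 in gene bodies alone, 438 with the stronger 50% of peaks, and 983 to 1141 with the peaks of 1 replicate. The median of 7 per member was 4 at 25 kb, 14 at 100 kb and 1 in gene bodies, 10 and 4 with distal distances of 1 and 5 kb, 4 with the stronger 50% of peaks, 6 with an overlap of 75 bp, and 9 to 10 with 1 replicate. With a CpG ratio of at least 0.75, 32 members in place of 54 were CpG-rich. Of 20 alternative motif shares 14 moved by more than the spread between replicates, and those with fewer mismatches stand beside the motifs. The depth is unknown, so weak sites missed in 1 library cannot be told from sites that are not open.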
